A study of Mus musculus with 5 samples.

Results

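The cells described here are pancreatic macrophages that carry transcripts of Mmp12, the macrophage elastase, with little or no Arg1 or Chil3 transcript. They were selected from 5 single-cell RNA-seq libraries of mouse pancreas, 1 library a group. The early KIC library came from early invasive pancreatic cancer of the KIC model taken at 40 days. The late KIC library came from late invasive cancer of that model at 60 days. The late KPfC library came from late invasive KPfC cancer at 60 days, and the late KPC library from late invasive KPC cancer at 6 months. The normal pancreas library came from normal tissue at 60 days. The KPfC mice were C57BL/6 and all other groups were a mixed background of C57BL/6 and FVB, and no mouse was treated. All 3 models are genetically engineered, with Cre expressed in the developing pancreas; the labels themselves give only the model names. The labels do not say how many mice went into a library.

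Every value is a count of UMIs, that is of distinct captured transcript molecules. A cell was a C1q macrophage if its C1qa, C1qb and C1qc UMIs together came to at least 3 and to at least 10 per 10000 of its UMIs. It was counted as an Mmp12 macrophage if it also had at least 2 Mmp12 UMIs, at most 1 Arg1 UMI, under 5 Chil3 UMIs, at most 1 UMI over the resident-macrophage genes Folr2, Lyve1 and Cbr2, no UMI of Epcam, Cd3e or Cd79a, and under 30 collagen and decorin UMIs (Col1a1, Col1a2, Col3a1, Dcn) per 10000. This rule found 216 Mmp12 macrophages among 10718 kept cells, of which 2624 were C1q macrophages. There were 41 in early KIC, 26 in late KIC, 123 in late KPfC, 26 in late KPC and 0 in normal pancreas. The 16 genes of the rule chose the cells, and their levels are given only as a description.

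Matrix metalloproteinase 12 is a secreted zinc protease that cleaves elastin and other matrix proteins and is made mainly by macrophages. GM-CSF and IL-4 receptors signal through STAT factors in macrophages, and Ccl17, a ligand of the T cell chemokine receptor Ccr4, and Itgax, the integrin chain CD11c, are genes that such cells often express. In tumours, macrophages that arrive from blood as monocytes and macrophages that settled in the tissue before birth can both be present, and their transcript programmes differ in chemokines, MHC class II genes and metabolic enzymes.

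The sequences in front of the 3 marker genes are shown because the cells were described by these genes, whose levels are reported below. Mmp12 lies at chr9:7344381-7369499 on the plus strand, Ccl17 at chr8:94810453-94812036 on the plus strand and Itgax at chr7:128129547-128150657 on the plus strand (GENCODE gene spans, GRCm38). The 250 bases before each annotated start site are from RefSeq, build GRCm38.p6, plus strand, written 5′ to 3′. Mmp12 has 2 annotated start sites, with windows at chr9:7344147-7344396 and chr9:7347124-7347373. The Ccl17 window is chr8:94810203-94810452 and the Itgax window is chr7:128129300-128129549. Capitals mark 4 motifs searched on both strands: TTC and GAA half-sites 3 or 4 bases apart (the STAT type; the capitals include the spacer), TGANTCA (the AP-1 type), and GAGGAA or its reverse complement (a PU.1 core).
Mmp12 first start: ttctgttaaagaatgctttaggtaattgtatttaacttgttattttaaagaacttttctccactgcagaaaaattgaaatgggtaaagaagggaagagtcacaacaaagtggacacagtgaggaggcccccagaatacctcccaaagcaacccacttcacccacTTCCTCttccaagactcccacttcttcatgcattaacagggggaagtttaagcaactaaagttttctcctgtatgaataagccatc
Mmp12 second start: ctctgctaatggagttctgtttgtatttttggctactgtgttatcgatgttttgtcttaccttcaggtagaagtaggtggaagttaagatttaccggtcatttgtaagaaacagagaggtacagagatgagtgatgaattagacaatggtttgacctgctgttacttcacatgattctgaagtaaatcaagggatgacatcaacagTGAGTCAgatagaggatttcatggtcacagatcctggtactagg
Ccl17: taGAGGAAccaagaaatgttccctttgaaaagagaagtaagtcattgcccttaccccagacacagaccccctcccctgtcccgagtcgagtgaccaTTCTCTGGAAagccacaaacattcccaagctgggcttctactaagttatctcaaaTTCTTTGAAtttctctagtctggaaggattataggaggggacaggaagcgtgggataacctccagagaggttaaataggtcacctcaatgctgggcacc
Itgax: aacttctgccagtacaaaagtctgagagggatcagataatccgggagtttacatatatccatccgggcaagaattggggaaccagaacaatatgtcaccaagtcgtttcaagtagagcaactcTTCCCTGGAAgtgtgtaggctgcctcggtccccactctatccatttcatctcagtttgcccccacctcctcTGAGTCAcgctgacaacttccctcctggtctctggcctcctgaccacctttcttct
The Ccl17 window held both spacings of the STAT-type pair, starting 99 and 154 bases before the start site, and a PU.1 core 248 bases before it. The Itgax window held the wider STAT-type pair at 127 bases and an AP-1 type motif at 56 bases. The first Mmp12 window held a PU.1 core at 86 bases, and the second an AP-1 type motif at 44 bases. Of all 32851 promoter windows of this length, 7.02% held the pair 3 bases apart, 5.85% the pair 4 bases apart, 6.75% the AP-1 type motif and 23.3% the PU.1 core, so each is a common short match and none of them is a measured binding site.

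Mmp12 macrophages made up 1.16% of the kept cells of early KIC (95% exact binomial interval 0.835 to 1.57), 3.11% in late KIC (2.04 to 4.52), 4.19% in late KPfC (3.50 to 4.98) and 2.51% in late KPC (1.65 to 3.66). In normal pancreas there were 0 among 2386 kept cells, which allows a share of up to 0.126% by a floor of 3 counts (exact upper limit 0.154%). Counted among C1q macrophages only, they were 5.99% in early KIC (4.33 to 8.03), 12.7% in late KIC (8.497 to 18.1), 8.54% in late KPfC (7.14 to 10.1) and 10.3% in late KPC (6.82 to 14.7). Among the 41 C1q macrophages of normal pancreas there were 0, which allows up to 7.32% by the same floor (exact upper limit 8.60%), so that their absence from the macrophages of normal tissue was not measurable at this number of cells. The intervals cover counting error only, and with 1 library a group no share was tested between conditions.

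Mmp12 transcripts were not confined to these cells. Of all C1q macrophages, 694 had at least 2 Mmp12 UMIs. The 216 kept by the rule are joined by 188 left out by Arg1 alone, 20 by Chil3 alone, 34 by both, 35 by the resident genes and 201 by the Epcam, Cd3e, Cd79a or collagen limit. Within the 216 cells, the median Mmp12 count per cell was 3 UMIs in early KIC, 10 in late KIC, 10 in late KPfC and 4 in late KPC, with highest cells of 29, 63, 83 and 46 UMIs in the same order of libraries. Just inside the limits, 39 cells had exactly 2 Mmp12 UMIs and 56 had exactly 1 Arg1 UMI. Just outside, 64 otherwise matching cells had 1 Mmp12 UMI, 17 had 2 Arg1 UMIs and 3 had 5 Chil3 UMIs, while no member had 4 Chil3 UMIs.

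Median UMIs per member were 2289 in early KIC, 8623 in late KIC, 7165 in late KPfC and 2736.5 in late KPC. Of the 216 members, 2 had a barcode that also occurred in another library, among 54 such pairs of kept cells in all. A doublet caller marked 9 of 10718 cells (0.084%) and no member; a share this low means that the caller did not work, and no doublet was removed. Female and male transcripts were both present in late KIC, where 6 members had Xist and no Y-linked transcript and 15 had a Y-linked transcript and no Xist. Those members therefore carry the transcripts of both sexes, whereas in early KIC 38 of 41 had Xist alone, in late KPfC 78 of 123 had Y-linked transcripts alone and in late KPC 23 of 26 had Xist alone. Normal pancreas also held both, with 658 kept cells with Xist alone and 123 with Y-linked transcripts alone. Among all kept cells of late KIC these numbers were 344 and 272. In late KPC, 1 member held 2005 of the 2045 haemoglobin UMIs found in members, and these UMIs are in the totals of that library.

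The macrophage label was checked against markers that the rule did not use. Lyz2, the macrophage lysozyme, had a UMI in 95.1% of members in early KIC, 100% in late KIC, 100% in late KPfC and 100% in late KPC. Csf1r, the receptor for the macrophage growth factor CSF1, had a UMI in 65.9%, 96.2%, 88.6% and 42.3% of members in the same order of libraries. Cd68 had a UMI in 48.8%, 69.2%, 70.7% and 30.8% of them, and Adgre1, which encodes F4/80, in 9.76%, 46.2%, 38.2% and 23.1%. The summed level of the macrophage identity list was 17330 CPM in Mmp12 macrophages against 23352 CPM in Mmp12-low macrophages of early KIC, 9906 against 13674 CPM in late KIC, 15513 against 17957 CPM in late KPfC and 12285 against 15585 CPM in late KPC (CPM are UMIs scaled to a total of 1000000; Mmp12-low macrophages are described next). The members were thus lower in each library. In the test given below 2 of 14 genes of the list, Itgam and Mrc1, were called lower and 0 higher. Over all genes tested, 1.87% were called lower and 1.21% higher. Detection of Lyz2 alone did not mark macrophages in late KPfC. There, 93.6% of Epcam cells and 93.1% of collagen-expressing cells, both without C1q, also had a Lyz2 UMI. Their Lyz2 levels were 1500 and 519 CPM, against 11672 CPM in the members. In late KIC, 51.4% of Epcam cells without C1q had a Lyz2 UMI. Of the genes that define dendritic cells, Flt3 and Clec9a had 0 UMIs in the members of every library, and Zbtb46 had 1 UMI in late KPfC and 0 in the other 3 libraries. Other dendritic cell genes were present: Ccr7 had a UMI in 17.1%, 11.5%, 10.6% and 7.69% of members and Batf3 in 12.2%, 11.5%, 14.6% and 3.85%. Xcr1 had one in 0%, 11.5%, 4.88% and 0%, Cd209a in 9.76%, 0%, 1.63% and 0%, and Fscn1 in 2.44%, 7.69%, 2.44% and 0%. The dendritic cell chemokine Ccl22 had 68.5, 4.41, 72.4 and 12.9 CPM in members of early KIC, late KIC, late KPfC and late KPC. In Mmp12-low macrophages it had 9.93, 15.2, 8.53 and 0 CPM. Summed over 18 dendritic cell markers, Mmp12 macrophages had 802 CPM against 464 CPM in Mmp12-low macrophages of early KIC, 481 against 342 CPM in late KIC, 696 against 611 CPM in late KPfC and 361 against 389 CPM in late KPC, with 5, 6, 3 and 9 of the genes at 0 in members. Against Mmp12-low macrophages 0 of the 7 tested genes of this list were called, against 3.09% of all genes. Their median log2 fold change was 0.62. Against Chil3-high macrophages 2 of 5 were called higher (Ccr7 and Mgl2) and 1 lower (Cd24a), against 1.82% and 2.78% of all genes. Acinar enzyme transcripts were high in early KIC, with a summed level of 27727 CPM in Mmp12 macrophages and 36308 CPM in Mmp12-low macrophages, and at most 83.3 CPM in the members of any late library. Their part in the results was not tested.

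The nearest cells to compare with are C1q macrophages that pass every part of the rule but have 0 or 1 Mmp12 UMI, called Mmp12-low here (559 cells). Arg1 macrophages (592 cells) had at least 2 Arg1 UMIs and under 5 Chil3 UMIs, and Chil3-high macrophages (282 cells) at least 5 Chil3 UMIs, with any number of Mmp12 UMIs in both. UMIs were summed per library and kind of cell, and each comparison was made within libraries that had at least 20 cells of both kinds. Members were deeper than Mmp12-low cells in each library, with medians of 2289 against 1795 UMIs in early KIC, 8623 against 6849 in late KIC, 7165 against 5293 in late KPfC and 2736.5 against 1502 in late KPC.

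Ccl17 was the gene furthest above the Mmp12-low macrophages. It had been proposed as a marker of these cells from the same data, so its values are a description without a test. Mmp12 macrophages had 499 CPM of Ccl17 in early KIC, 362 CPM in late KIC, 2745 in late KPfC and 1405 CPM in late KPC, while Mmp12-low macrophages had 34.0, 190, 209 and 0 CPM in the same libraries. The members were higher in each of the 4 libraries, by a ratio of 14.7 in early KIC (95% counting interval 8.86 to 24.9), 1.90 in late KIC (1.20 to 3.11), 13.1 in late KPfC (11.1 to 15.6) and at least 28.9 in late KPC against a floor of 3 counts in that group. Arg1 macrophages had 93.2, 9.38, 389 and 0 CPM in the 4 libraries, and Chil3-high macrophages had 56.7, 108 and 55.02 CPM in the 3 late ones. The order of the members' own levels, late KPfC, late KPC, early KIC and late KIC, ended in a pair whose ratio of 0.725 (late KIC over early KIC) had an interval of 0.505 to 1.05 and so did not differ beyond counting error.

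**Figure D1:**
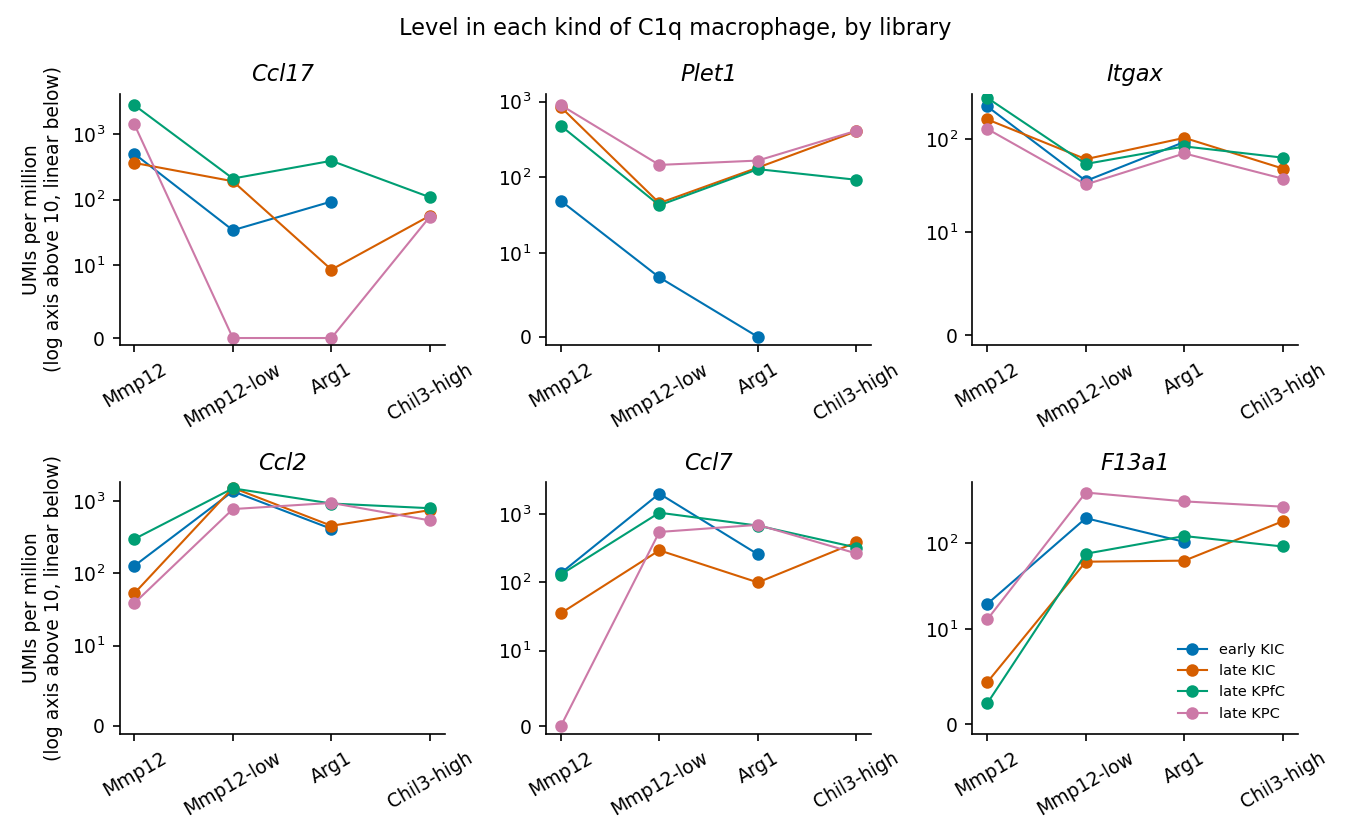
Level of 6 genes in CPM (log axis above 10, linear below) in Mmp12, Mmp12-low, Arg1 and Chil3-high macrophages, each point the summed cells of 1 library and each line 1 library. Ccl17, Plet1 and Itgax are highest in Mmp12 macrophages, and Ccl2, Ccl7 and F13a1 are lowest there, in each of the libraries drawn.

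Ccl17 was uneven among the members. A UMI of it was found in 105 of 216 (48.6%), that is 21.95% in early KIC, 30.8% in late KIC, 64.2% in late KPfC and 34.6% in late KPC. The tenth of members with most Ccl17 held 82.4% of its UMIs in early KIC, 71.95% in late KIC, 57.7% in late KPfC and 62.4% in late KPC, and 1 cell of late KPfC had 221. Of cells that should lack the gene, C1q-negative collagen-expressing cells had a Ccl17 UMI in 1.44% of 1184 cells in early KIC (median 1709.5 UMIs), 9.26% of 54 in late KIC (14740.5 UMIs), 20.7% of 29 in late KPfC (9616 UMIs) and 0% of 109 in late KPC (2920 UMIs). Epcam cells without C1q had one in 3.13% of 319 cells in early KIC (81.8 CPM), 11.1% of 72 in late KIC (299 CPM), 24.0% of 125 in late KPfC (288 CPM) and 2.17% of 46 in late KPC (10.9 CPM). In late KIC that level came from 324 UMIs in 8 of the 72 Epcam cells, so it is no even background level. Collagen-expressing cells of late KIC had 35.1 CPM, against 362 CPM in the members and 190 CPM in Mmp12-low macrophages. In late KPfC, the 22.4% of Mmp12-low macrophages with a Ccl17 UMI lay close to the 20.7% and 24.0% of these other cells, and the 64.2% of members above them. With every cell thinned to 1500 UMIs, Ccl17 was found in 22.9% of members in early KIC, 19.2% in late KIC, 45.5% in late KPfC and 30.4% in late KPC, against 2.69%, 5.26%, 12.8% and 0% of Mmp12-low macrophages. Thinning left out 6 of 41 members and 105 of 365 Mmp12-low cells in early KIC and 3 of 26 and 17 of 34 in late KPC for having fewer UMIs.

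Itgax, the integrin chain CD11c and the other proposed marker, is also given as a description. Its level was 225 CPM in the members of early KIC, 163 CPM in late KIC, 279 in late KPfC and 129 CPM in late KPC, and in Mmp12-low macrophages 35.4, 60.8, 54.0 and 32.4 CPM. Itgax had a UMI in 132 of 216 members (61.1%), Ccl17 and Itgax were both seen in 81 members, and neither in 60 (27.8%), of which 22 were in the shallow early KIC library. In C1q-negative collagen-expressing cells Itgax had a UMI in 0.0845% of those of early KIC and in 0% in each late library, and Epcam cells without C1q had one in 1.25% in early KIC, 9.72% in late KIC, 9.60% in late KPfC and 2.17% in late KPC. Over cells grouped by their Mmp12 UMIs, Itgax was 113 CPM in late KPfC members with 2 Mmp12 UMIs, 232 CPM in those with 3 to 9, and 320 CPM in those with 10 or more. Ccl17 was 16.2 CPM, 2477 CPM and 3177 CPM in the same groups of late KPfC, but 707 CPM in the Mmp12-low cells with 1 Mmp12 UMI. In early KIC, Ccl17 was 301 CPM in cells with 1 Mmp12 UMI and 127, 701 and 600 CPM in the groups of members, and Itgax in late KIC members was about level, at 160, 147 and 176 CPM. Mmp12 is a gene of the rule, so these values are a description. In late KPC the corresponding Ccl17 levels were 48.9, 386 and 4509 CPM, from 7, 13 and 6 cells. These classes also differ in depth, with medians of 4528, 6269 and 8635 UMIs in late KPfC.

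**Figure D2:**
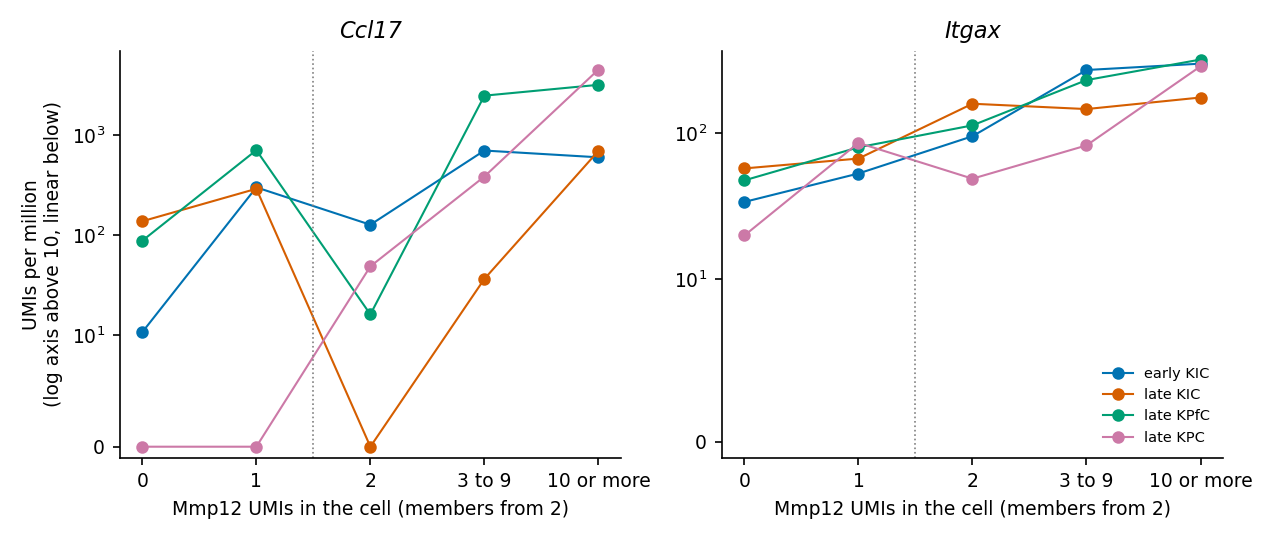
Ccl17 and Itgax levels in CPM (log axis above 10, linear below) in C1q macrophages grouped by their number of Mmp12 UMIs, one line a library; cells right of the dotted line are Mmp12 macrophages and cells left of it Mmp12-low. The lines are not monotone: in late KPfC Ccl17 is 707 CPM in cells with 1 Mmp12 UMI, 16.2 CPM with 2 and 3177 CPM with 10 or more, and single groups hold as few as 5 cells.

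Against Mmp12-low macrophages the fit used early KIC, late KPfC and late KPC, because late KIC had 19 Mmp12-low cells. Of 3952 genes tested with edgeR's quasi-likelihood test with the library as a block, 122 were called at a Benjamini-Hochberg adjusted p under 0.05 (3.09%), of which 48 were higher (1.21%) and 74 lower (1.87%) in Mmp12 macrophages. An unadjusted p under 0.05 was reached by 530 genes. Ccl17 and Itgax, though given as description, are among the genes tested and in the count of higher genes. With 3 libraries, each of 1 condition, the p-values set a difference against a variance that edgeR estimates partly from the other genes. They do not measure the spread of 1 gene's difference among these libraries alone. Without the library block edgeR called 0 genes (198 at an unadjusted p under 0.05), and the count was 26 without late KPfC, which holds 123 of the 216 members, 215 without late KPC, and 67 with DESeq2 or with each cell thinned to 1500 UMIs. The thinned fit held 2 libraries and tested 2271 genes, and the fit without late KPfC tested 1308.

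Of the chemokine receptor and adhesion list, 14 genes were measured, with a median log2 fold change of -0.093. Itgal was called higher and 2 genes lower (Ccr2 and Itgam), against 1.21% and 1.87% of all genes. Itgax, the proposed marker, is in the list and its median but is a description and is not counted here. Plet1, which encodes a GPI-anchored surface protein, had 48.9 CPM in the members of early KIC, 851 CPM in late KIC, 481 in late KPfC and 902 CPM in late KPC, and in Mmp12-low macrophages 7.09, 45.6, 42.6 and 146 CPM. It was higher in the members in all 4 libraries, and its log2 fold change over the 3 libraries of the fit was 3.16 ± 0.28 (SE; edgeR adjusted p = 3.4e-05). Itgal, the alpha chain of the integrin LFA-1, rose by 2.44 ± 0.43 on the log2 scale (edgeR adjusted p = 0.0060), with 39.1, 62.5 and 180 CPM in members of early KIC, late KPfC and late KPC, against 7.09, 12.8 and 16.2 CPM in Mmp12-low cells. Dcstamp, a membrane protein needed for macrophage fusion, rose by 2.68 ± 0.30 (adjusted p = 1.2e-04). It was found in 46.3% of members in early KIC, 53.8% in late KIC, 57.7% in late KPfC and 50% in late KPC.

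**Figure D3:**
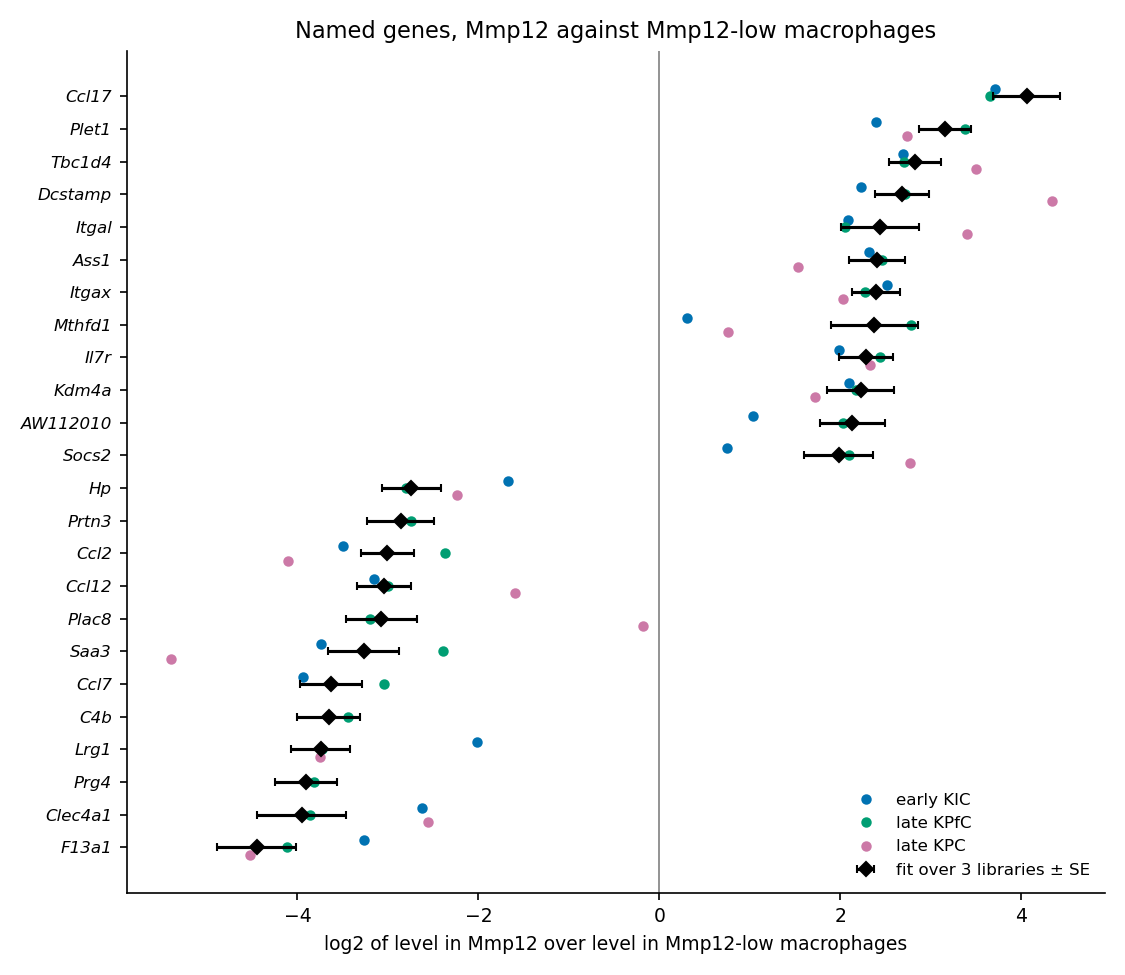
Log2 ratio of level in Mmp12 over Mmp12-low macrophages for the 24 named genes (Ccl17 and Itgax drawn as description), with black diamonds for the fit over 3 libraries ± SE and coloured points for single libraries. Late KIC, with 19 Mmp12-low cells, is not in the fit and not drawn, and a library with 0 UMIs on either side has no point; in early KIC, late KPfC and late KPC the drawn points of 12 genes lie right of 0 and those of 12 left of it.

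Il7r, the receptor chain for IL-7 and TSLP, rose by 2.29 ± 0.30 (edgeR adjusted p = 4.7e-04), with 245, 106 and 232 CPM in members of early KIC, late KPfC and late KPC, against 56.7, 17.1 and 48.7 CPM in Mmp12-low cells. Il7r is also a T cell gene. Summed over 8 T and NK cell genes, Il7r among them, members had 245, 120 and 271 CPM in early KIC, late KPfC and late KPC, against 65.2, 29.8 and 48.7 CPM in Mmp12-low cells, with 7, 3 and 5 of the 8 genes at 0 in members. Klrd1 had a UMI in 6.504% of members of late KPfC, and Cd3g and Nkg7 in 3.85% each of those of late KPC. Most of each sum was Il7r itself: 245 of 245, 106 of 120 and 232 of 271 CPM in members. In Mmp12-low cells Il7r made up 56.7 of 65.2, 17.1 of 29.8 and 48.7 of 48.7 CPM. The sums are thus no separate measure of T or NK cell transcripts, whose part in the Il7r result was not tested. Tbc1d4, a Rab GTPase-activating protein in glucose transporter traffic, rose by 2.83 ± 0.29 (adjusted p = 4.5e-05), and Ass1, the argininosuccinate synthase of arginine synthesis, rose by 2.41 ± 0.31 (adjusted p = 4.6e-04). The other named genes that rose were Mthfd1, a folate-pathway enzyme (log2 fold change 2.38 ± 0.48), Kdm4a, a histone demethylase (2.22 ± 0.37), AW112010, a small interferon-linked transcript (2.13 ± 0.36), and Socs2, a feedback inhibitor of STAT signalling (1.98 ± 0.38). Mthfd1 in early KIC rested on 1 UMI in members and 5 in Mmp12-low cells.

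The chemokines that attract Ccr2-bearing monocytes were lower in the members. Ccl2 had 127 CPM in early KIC, 52.9 CPM in late KIC, 299 in late KPfC and 38.7 CPM in late KPC, while Mmp12-low macrophages had 1373, 1535, 1508 and 778 CPM. No library of the members reached the lowest Mmp12-low library, and the log2 fold change of Ccl2 was -3.01 ± 0.29 (SE; edgeR adjusted p = 3.6e-05). Ccl7 fell by 3.63 ± 0.35 and Ccl12 by 3.05 ± 0.30 on the log2 scale (both at adjusted p = 3.6e-05). Ccl7 had 0 UMIs in the 26 members of late KPC, where Mmp12-low cells had 551 CPM. Of the 16 measured chemokines other than Ccl17, 2 were called higher (Ccl24 and Cxcl16) and 5 lower (Ccl2, Ccl7, Ccl9, Ccl12 and Cxcl2), against 1.21% and 1.87% of all genes. The median log2 fold change of the list with Ccl17 was -0.64, against 0.0044 for all genes tested. Cxcl16, a ligand of Cxcr6 on T cells, had 606, 576 and 245 CPM in members of early KIC, late KPfC and late KPC, against 315, 108 and 114 CPM in Mmp12-low cells (log2 fold change 1.58 ± 0.29, edgeR adjusted p = 0.0075).

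Some genes of blood monocytes and some acute-phase genes were lower as well. Summed over 10 monocyte markers outside the rule, members had 528, 384, 616 and 1160 CPM in early KIC, late KIC, late KPfC and late KPC. Mmp12-low macrophages had 1034, 1634, 1939.5 and 1314 CPM, so the sums lay closest in late KPC. F13a1, the A chain of coagulation factor XIII and a monocyte gene, had 19.6 CPM in members of early KIC, 4.41 CPM in late KIC, 2.19 in late KPfC and 12.9 CPM in late KPC, and 196, 60.8, 75.3 and 389 CPM in Mmp12-low macrophages. Its log2 fold change was -4.45 ± 0.44 (edgeR adjusted p = 3.9e-05). Of 11 monocyte markers, 6 passed the filter on low counts and 4 of these fell (Ccr2, Plac8, Hp and F13a1), against 1.87% of all genes tested. In late KIC, outside the fit, Plac8 was higher in members, at 154 CPM against 45.6 CPM in Mmp12-low macrophages (ratio 3.38, interval 1.41 to 9.84). Hp, which encodes haptoglobin, fell by 2.74 ± 0.32, and Saa3, serum amyloid A3, by 3.27 ± 0.39. Saa3 was 19.6, 22.04, 484 and 38.7 CPM in members of early KIC, late KIC, late KPfC and late KPC, and 272, 114, 2471 and 1914 CPM in Mmp12-low cells. Also among the 12 named genes that fell were Clec4a1 (C-type lectin receptor), Prg4 (lubricin), Lrg1 (a secreted glycoprotein), C4b (complement C4) and Prtn3 (a granule protease), with log2 fold changes of -3.95 ± 0.49, -3.91 ± 0.34, -3.74 ± 0.32, -3.66 ± 0.35 and -2.86 ± 0.37. Itgam, the integrin chain CD11b, fell in the members by 2.24 ± 0.32 on the log2 scale when set against Arg1 macrophages (edgeR adjusted p = 0.0083). The summed level of 14 stress genes that rise on tissue dissociation was 5154, 5903, 6648 and 4873 CPM in members of early KIC, late KIC, late KPfC and late KPC, against 6252, 10930, 9332 and 11530 CPM in Mmp12-low macrophages. None of the 14 genes was at 0 in Mmp12-low cells, and 2 of them (Dusp1 and Ier3) were called lower in members, against 1.87% of all genes. The part of these stress genes in the lower genes was not tested.

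MHC class II genes, whose products present peptide to CD4 T cells, were higher in the members than in Mmp12-low macrophages of the tumour libraries. H2-Ab1 had 12929 CPM in early KIC, 13989 CPM in late KIC, 7619 in late KPfC and 7709 CPM in late KPC, and in Mmp12-low macrophages 7911, 10527, 4840 and 3260 CPM. The log2 fold change of H2-Ab1 was 0.86 ± 0.16 (edgeR adjusted p = 0.0075), and those of H2-Eb1 0.95 ± 0.16, of H2-Aa 0.76 ± 0.15 and of the chaperone Cd74 0.73 ± 0.13 were also called. Of the 12 MHC class II presentation genes measured, 4 were called higher and 0 lower, against 1.21% and 1.87% of all genes, with a median log2 fold change of 0.65 against 0.0044 for all genes. The costimulatory genes Cd86 (-0.27 ± 0.30, edgeR adjusted p = 0.82) and Cd40 (-0.50 ± 0.51, edgeR adjusted p = 0.79) did not pass the test. Per cell, the median sum of H2-Aa, H2-Ab1, H2-Eb1 and Cd74 UMIs per 10000 was 702 in members against 328 in Mmp12-low macrophages of early KIC, 565 against 508 in late KIC, 399 against 276 in late KPfC and 312 against 108 in late KPC. The 16 Mmp12-low macrophages of normal pancreas had a median of 879, above the members of every tumour library. A high MHC class II level was thus not particular to the members.

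**Figure D4:**
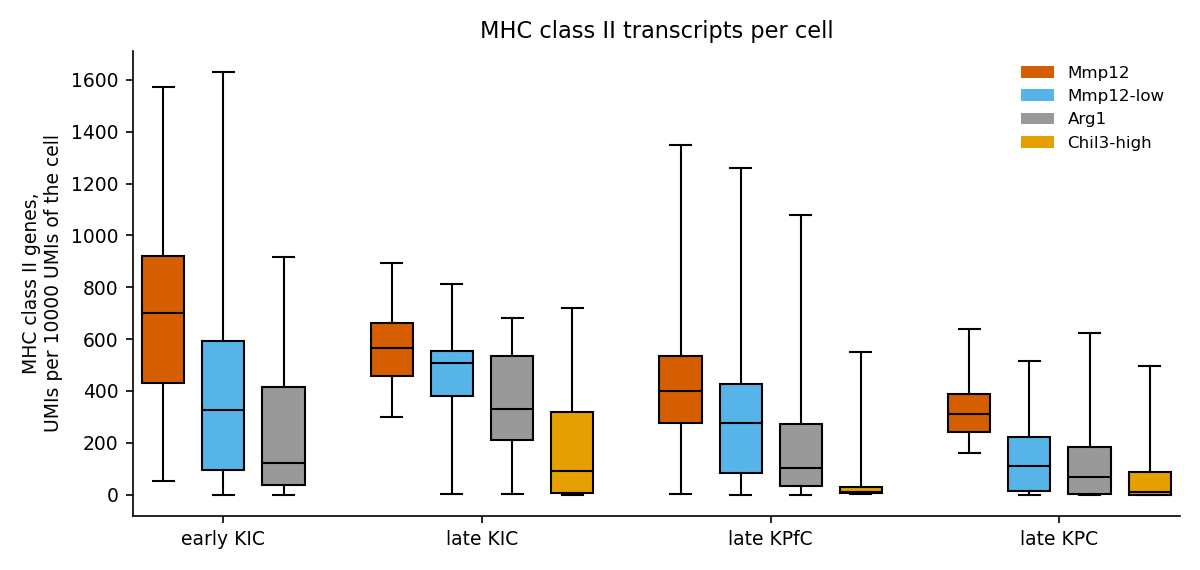
Sum of MHC class II transcripts per cell, in UMIs per 10000 UMIs of the cell, for Mmp12, Mmp12-low, Arg1 and Chil3-high macrophages of each tumour library (line: median, box: quartiles, whiskers: lowest and highest cell). In every library drawn the box of the Mmp12 macrophages has the highest median. Early KIC has no Chil3-high cells, and normal pancreas, which has no members, is not drawn.

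GM-CSF and IL-4 responsive genes differed in direction. Besides Ccl17, 2 of the other 15 measured were called higher against Mmp12-low macrophages (Dcstamp and Socs2; 1.21% of all genes) and 1 lower (1.87% of all genes), and the median of all 16 was 0.33. The lower gene was Retnla, which IL-4 induces, at 802 CPM in members of early KIC, 0 CPM in late KIC, 45.0 in late KPfC and 0 CPM in late KPC, and 2711, 0, 438 and 0 CPM in Mmp12-low cells. Among lipid-associated genes Lpl, lipoprotein lipase, and Cd9, a tetraspanin, were called higher (2 of 19 measured, against 1.21% of all genes; list median 0.095, against 0.0044), with log2 fold changes of 1.35 ± 0.26 and 1.09 ± 0.22 (edgeR adjusted p = 0.0098 and 0.014). Trem2 (-0.28 ± 0.24), Gpnmb (0.46 ± 0.48) and Spp1 (0.10 ± 0.19) did not pass. The clearance receptor Axl rose by 1.20 ± 0.23 (adjusted p = 0.0088). Of glycolysis and hypoxia genes, none of 14 was called against Mmp12-low macrophages, with a median of -0.090.

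Against Arg1 macrophages, the second comparison, all 4 tumour libraries entered the fit. Of 1988 genes tested, 85 were called (4.28%), 29 higher (1.46%) and 56 lower (2.82%); 316 reached an unadjusted p under 0.05. The count was 12 without late KPfC, 34 without late KIC, 14 with each cell thinned to 1500 UMIs, and 0 without the library block (111 at an unadjusted p under 0.05). These fits tested 1362, 1376, 716 and 1988 genes. MHC class II genes were again higher, in 7 of 10 measured with a median log2 fold change of 1.08, against 0.015 for all genes tested. H2-Eb1 had 2934, 4206, 5488 and 5401 CPM in members of early KIC, late KIC, late KPfC and late KPC, and 704, 2342, 2144 and 1710 CPM in Arg1 macrophages (log2 fold change 1.49 ± 0.18, edgeR adjusted p = 0.0034). Plet1 (2.32 ± 0.23), Dcstamp (1.57 ± 0.23), Tbc1d4 (1.51 ± 0.25) and Il7r (1.46 ± 0.32) rose here too. Without late KIC the calls of Il7r, AW112010, H2-DMb2, Tspan13, Ccl2 and Ccl7 were lost, and without late KPfC those of Dcstamp, Tbc1d4, AW112010, H2-DMb2, Tspan13, Ccl7, Itgam, Slpi, Ecm1 and Spp1. Of the 12 named higher genes, H2-Eb1, Gcnt2, a glycan-branching enzyme (1.61 ± 0.28), Tspan13, a tetraspanin (1.58 ± 0.35), Qpct, glutaminyl cyclase (1.29 ± 0.24), and H2-DMb2, a peptide-exchange chain (1.65 ± 0.39) were not among those named against Mmp12-low cells. Ccl17 and Itgax were higher in each library and are in the count of higher genes, but are description here, as above.

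The enzymes of glycolysis were lower in Mmp12 than in Arg1 macrophages. Of 13 glycolysis and hypoxia genes measured, 7 fell and 0 rose, against 2.82% and 1.46% of all genes. The list median was -0.77, against 0.015 for all genes tested. Gapdh, the glyceraldehyde phosphate dehydrogenase, had 763 CPM in members of early KIC, 1389 CPM in late KIC, 1529 in late KPfC and 748 CPM in late KPC, against 1801, 2483, 2253 and 1298 CPM in Arg1 macrophages, a log2 fold change of -0.81 ± 0.13 (edgeR adjusted p = 0.010). Ldha, lactate dehydrogenase, fell by 0.86 ± 0.15 and Ero1l, a hypoxia-induced oxidase of protein folding, by 1.57 ± 0.32. Pfkl, the liver phosphofructokinase, fell by 1.95 ± 0.30. Spp1, osteopontin, had 910, 3337, 770 and 1083 CPM in members of early KIC, late KIC, late KPfC and late KPC and 5870, 5476, 1337 and 5226 CPM in Arg1 macrophages (-1.54 ± 0.30). F13a1, Saa3, Hp, Ccl2, Ccl7, Itgam, the protease inhibitor Slpi (-2.17 ± 0.31) and the matrix protein Ecm1 (-1.92 ± 0.40) were also among the named lower genes.

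Against Chil3-high macrophages, the fit used the 3 late libraries and tested 4679 genes, of which 215 were called (4.59%), 85 higher (1.82%) and 130 lower (2.78%); 796 reached an unadjusted p under 0.05. The count was 127 without late KIC, 46 with each cell thinned to 1500 UMIs and 16 without the library block. These fits tested 5358, 1398 and 4679 genes. Of 12 MHC class II presentation genes, 9 rose and 0 fell, with a median log2 fold change of 1.72, against -0.017 for all genes. H2-Ab1 had 13989 CPM in members of late KIC, 7619 in late KPfC and 7709 CPM in late KPC, and 4065, 859 and 1593 CPM in Chil3-high macrophages. Mmp13, the collagenase of the same protease family as Mmp12, had 1212 CPM in late KIC, 80.0 in late KPfC and 219 CPM in late KPC in the members, against 115, 7.73 and 6.60 CPM in Chil3-high macrophages (log2 fold change 3.64 ± 0.31, edgeR adjusted p = 1.7e-04). Among the other named genes that rose were Dnase1l3, a secreted DNase (4.64 ± 0.74), Il7r (3.795 ± 0.41), the adhesion receptor Adgrg5 (3.61 ± 0.66), Pxdc1 (3.57 ± 0.48), Ms4a7, a macrophage membrane protein (3.52 ± 0.38), and the oxysterol receptor Gpr183 (3.19 ± 0.55). Dnase1l3 and Adgrg5 lost their call without late KIC.

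The genes that were lower than in Chil3-high macrophages include scavenger and secreted defence proteins. Marco, a scavenger receptor, had 4.41 CPM in members of late KIC, 10.97 in late KPfC and 0 CPM in late KPC, against 168, 581 and 449 CPM in Chil3-high macrophages (log2 fold change -5.80 ± 0.37, edgeR adjusted p = 3.2e-05). Saa3 had 22.04, 484 and 38.7 CPM in members of late KIC, late KPfC and late KPC against 1415, 12296 and 2938 CPM. Alox15, arachidonate 15-lipoxygenase, fell by 5.11 ± 0.44, Prg4 by 5.70 ± 0.38 and Fcna, ficolin A, by 4.25 ± 0.37. The chemokine list had 2 genes higher and 7 lower of 17 measured, against 1.82% and 2.78% of all genes. Ccl17, a description as above, is among the higher genes and in the list median. Its median was -0.79, against -0.017 for all genes. Fn1, fibronectin, had 1234, 1170 and 1405 CPM in members of late KIC, late KPfC and late KPC against 2221, 5723 and 3488 CPM in Chil3-high macrophages (-1.51 ± 0.24).

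Between libraries the Mmp12 macrophages could be compared only as single libraries, by ratios of CPM with exact counting intervals, for genes with at least 20 UMIs over both libraries. From early to late KIC, the level of 320 among 1907 genes in late KIC was 2-fold or more above that in early KIC (16.8%), and that of 179 was 2-fold or more below it (9.39%). Members were deeper in late KIC, with a median of 8623 against 2289 UMIs in early KIC, and after thinning of all cells to 1500 UMIs there were 95 above and 88 below. Mmp13 had 1212 CPM in the 26 members of late KIC and 0 UMIs in the 41 members of early KIC, at least 41.3-fold higher against a floor of 3 counts in early KIC. Mmp13 was also higher in late KIC in Mmp12-low macrophages (334 against 18.4 CPM) and in Arg1 macrophages (413 against 0 CPM). Whether differences between libraries were particular to the members was not tested. Il10, an anti-inflammatory cytokine, had 727 CPM in late KIC against 9.78 CPM in early KIC, from 165 and 1 UMIs (ratio 74.4, interval 13.2 to 2955). Il1r2, the decoy receptor of IL-1, had 1975 CPM in late KIC against 97.8 CPM in early KIC (ratio 20.2, interval 10.9 to 42.4). Ifitm1, an interferon-induced membrane protein, had 2628 CPM in late KIC against 19.6 CPM in early KIC, and Adamdec1, a disintegrin-like protease, had 516 CPM against 0. Among 17 inflammatory cytokine genes, 10 lay 2-fold or more above and 1 below in late KIC. Of genes at least 2-fold lower, Ins2 (0 CPM in late KIC against 3042 CPM in early KIC), Ins1 and Gcg are islet hormones and Reg3b is an acinar and gut lectin, and the acinar list had 9 of 9 measured genes lower. Retnla had 0 UMIs in late KIC against 82 in early KIC.

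**Figure D5:**
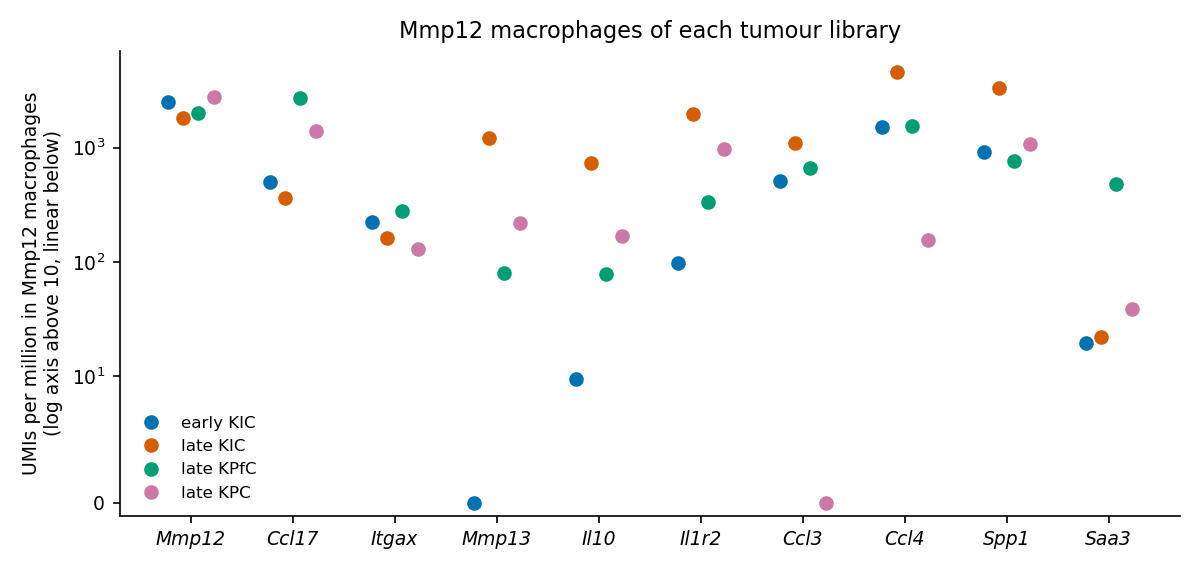
Level of 10 genes in Mmp12 macrophages of the 4 tumour libraries, in CPM (log axis above 10, linear below), each point 1 library. Mmp12, which the rule used to choose these cells, differs by less than 2-fold between libraries and is drawn as description only. Mmp13 is 0 in early KIC and 1212 CPM in late KIC, and Ccl3 is 0 in late KPC.

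Set against late KPfC, late KIC showed 340 among 4815 genes 2-fold or more above (7.06%) and 653 that were 2-fold or more below (13.6%), or 131 and 247 with each cell thinned to 1500 UMIs. Mouse strain and the sexes present also differ between these libraries and cannot be told apart from the model. Mmp13 was 1212 CPM in late KIC against 80.0 CPM in late KPfC (ratio 15.1, interval 11.7 to 19.9), and Ifitm1 2628 CPM against 71.3 CPM. For Mmp13 the other kinds differed in the same direction, at 334 against 19.9 CPM in Mmp12-low and 413 against 46.6 CPM in Arg1 macrophages. Hal, histidine ammonia-lyase, was 123 CPM in late KIC against 1.10 CPM in late KPfC, from 28 and 1 UMIs (ratio 113, interval 18.6 to 4603). Ccl17 was 362 CPM in late KIC against 2745 CPM in late KPfC, a ratio of 0.132 (0.104 to 0.164). Saa3 had 22.04 CPM against 484 CPM, Ifi27l2a, an interferon-induced gene, 17.6 CPM against 435 CPM, Wfdc17, a secreted protease-inhibitor-like protein, 265 CPM against 2174 CPM, and Tnfrsf9, the receptor 4-1BB, 4.41 CPM against 164 CPM. Spint1, an inhibitor of epithelial serine proteases, had 0 UMIs in late KIC and 162 CPM in late KPfC. Gm10260 and Gm8797, also named as higher in late KIC, are predicted genes that may share reads with near-identical copies.

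Set against late KPfC, late KPC showed 566 among 4460 genes 2-fold or more above (12.7%) and 608 that were 2-fold or more below (13.6%), or 176 and 184 with each cell thinned to 1500 UMIs. These libraries also differ in strain, age and sex (Xist in late KPC, Y-linked transcripts in late KPfC), which cannot be told apart from the model. Chemokines were among the genes furthest below. Ccl3, a ligand of Ccr1, had 0 UMIs in late KPC and 663 CPM in late KPfC, at least 17.2-fold lower in late KPC against a floor of 3 counts there, and Ccl4, a related CC chemokine, had 155 CPM against 1533 CPM (ratio 0.101, interval 0.0520 to 0.177). Among 18 chemokines measured, late KPC was 2-fold or more below in 9 and above in 2. Ccl17 had 1405 CPM in late KPC and 2745 CPM in late KPfC, a ratio of 0.512 (0.419 to 0.620). Clu, clusterin, had 25.8 CPM in late KPC against 607 CPM in late KPfC. Tmem245, a membrane protein, had 193 CPM in late KPC against 9.87 CPM in late KPfC. Rnase2a, a ribonuclease, had 348 CPM in late KPC against 9.87 CPM in late KPfC, and Vps8, an endosomal tethering protein, 645 CPM against 9.87 CPM. The ribosomal gene Rpl29 with the predicted gene Gm10116, and the predicted genes Gm8797 and Gm10800, were also named and may share reads with near-identical copies.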

How the data were processed

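Single-cell suspensions were profiled as 10x 3' libraries, 1 library a group, and the deposited values are UMI counts per gene and cell, which the authors obtained using Cell Ranger 2.1.1 and GRCm38, per the submitters' processing notes. No label says whether a library pools mice. Cells with at least 200 genes and at most 20% mitochondrial UMIs were kept: 3529 of 3534 barcodes in early KIC, 836 of 938 in late KIC, 2933 of 3143 in late KPfC, 1034 of 1377 in late KPC and 2386 of 2644 in normal pancreas. Libraries held 3488871 to 26749820 UMIs.

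The members, the 28 gene lists (353 genes, 5 not in the table of 27998) and the tests were chosen with earlier results of these data known. UMIs were summed per library and kind of cell, and tested with edgeR 4.0.16 (R 4.3.3; quasi-likelihood, TMM, filterByExpr, library as a block, Benjamini-Hochberg over all genes tested, 16 rule genes left out) in libraries with at least 20 cells of both kinds. CPM are UMIs of the summed cells scaled to a total of 1000000. Libraries were compared by ratios with exact 95% intervals, which cover counting error only; a group at 0 was set to a floor of 3 counts. Named genes are the 12 in each direction with the largest log2 fold change among those called, with the same direction in every library of the fit and at least 20 UMIs; between libraries, the 5 in each direction whose interval bound nearest 1 is furthest from it, without sex-linked, haemoglobin and acinar genes. A named gene is not reported here. DESeq2 1.42.0, other filters, thinning to 1500 UMIs, other Mmp12 limits and leaving out each library were the alternatives. Python 3.11.15, numpy 2.4.6, pandas 2.3.3, scipy 1.17.1 and scanpy 1.11.5 were used, and the tests were run on simulated data first.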

Additional observations from a re-analysis of the deposited data

Results flagged for a closer look

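For 4 genes the ratio of Mmp12 over Mmp12-low macrophages pointed one way in 1 library and the other way in others. Each library is 1 sample, and the difference between libraries was not tested. Plac8, a monocyte gene, had a ratio of 3.38 in late KIC (95% interval 1.41 to 9.84) and of 0.109 in late KPfC, and in early KIC the members had 0 UMIs of it. Ccl3 had a ratio of 1.85 in late KIC (1.43 to 2.42), 0.651 in early KIC and 0.963, close to 1, in late KPfC. In late KPC the members had 0 UMIs of Ccl3. Ifitm1 had a ratio of 0.429 in late KPfC (0.312 to 0.585), 2.37 in late KIC and 4.37 in late KPC. Il10 had a ratio of 1.62 in late KIC (1.20 to 2.22), 0.0428 in early KIC and 0.400 in late KPfC.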

How the results depend on the processing

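Against Mmp12-low macrophages, 122 genes were called; the count was 0 with no library block, 67 with DESeq2, 77 with at least 10 cells a library (which adds late KIC), 67 with cells thinned to 1500 UMIs, 284 with members of at least 4 Mmp12 UMIs, 238 in cells of at least 2000 UMIs, and 26 (without late KPfC) to 215 (without late KPC) with 1 library left out. Against Arg1 macrophages, 85 were called, against 264 with no filter beyond 1 UMI, 0 with no block, 14 thinned, 50 with at least 4 Mmp12 UMIs, and 12 (without late KPfC) to 122 (without early KIC) with 1 library left out. Against Chil3-high macrophages, 215 were called, against 451 with no filter beyond 1 UMI, 16 with no block, 46 thinned, 349 with at least 4 Mmp12 UMIs, and 127 (without late KIC) to 261 (without late KPC) with 1 library left out. Against Mmp12-low macrophages, the fits thinned, with at least 4 Mmp12 UMIs and with at least 2000 UMIs held 2 libraries, not 3. They tested 2271, 5699 and 4629 genes, against 3952. The fit with at least 10 cells a library tested 2035 genes. The Arg1 fits tested 1988 genes in the main setting, 15200 with no filter beyond 1 UMI and 716 thinned. For Chil3-high these numbers were 4679, 13954 and 1398. The counts called are thus out of unlike numbers of genes tested. With at least 4 Mmp12 UMIs, the Arg1 fit held 3 libraries, not 4, and the Chil3-high fit 2, not 3. Thinning and leaving out libraries lower the number of counts or samples, and the other causes were not tested. Of 816 values of named genes under the alternatives, 710 kept their direction and call, 106 lost the call (63 of them with no library block) and 0 reversed. The named genes had been chosen for a call and 1 direction in every library, so these counts are no independent check. Genes no longer tested are not counted. Of 24 named genes, 10 were tested against Mmp12-low macrophages without late KPfC, and 12 with at least 10 cells a library. After thinning, 8 of 24 were tested against Arg1 and 9 of 24 against Chil3-high macrophages.

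The share of kept cells became 1.96% (at least 1 Mmp12 UMI) and 0.567% (at least 4) in early KIC, 5.01%, 3.48% and 5.35% (thinned) in late KPfC, and 1.35% (at least 4) in late KPC; of C1q macrophages it became 10.1% and 2.92%, 10.2%, 7.08% and 12.4%, and 5.53% in the same settings. Genes at least 2-fold higher and lower numbered 111 and 77 with at least 50 UMIs and 95 and 88 thinned for late KIC over early KIC, 130 and 270, then 131 and 247 for late KIC over late KPfC, and 198 and 336, then 176 and 184 for late KPC over late KPfC, with 403 lower with at least 4 Mmp12 UMIs. No paired analysis was possible because each group is 1 library; the library block pairs kinds of cell within a library. Members of early KIC and late KPC are shallow, and 26 members a library limit low genes.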
